A study of Mus musculus with 3 samples.

Results

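The promoters described here carried a short stretch of monomethylated H3K4 (H3K4me1) in resting splenic NK cells (NKC) and showed no Runx3 peak over that stretch. Regions were chosen by 3 properties of the deposited coordinates, namely a width under 3180 bp, 0 bp shared with every Runx3 peak, and a midpoint under 1 kb from the start (TSS) of a protein-coding transcript. The rule found 6565 of 49902 H3K4me1 regions (13.2%), called Runx3-free promoter regions below. Chromatin had been prepared from freshly isolated, unstimulated NKC of ICR mice, a random-bred stock, and immunoprecipitated for Runx3 or for H3K4me1, with non-immune serum (NIS) as the control and 1 sample each. The labels give fixation in 1% formaldehyde and fragments of about 300 bp, and all 3 groups share this preparation, with no genotype or treatment that differs. The cells were sorted on NKp46 by the labels and on DX5 by the study's methods. What is compared here is therefore classes of regions within 1 H3K4me1 list and 1 Runx3 list, with no replicate lists, no signal height and no peak score. Intervals in the text are 95% intervals over regions or genes (Wilson for a share, Newcombe for a difference of shares). They cover counting error alone, since regions are not biological replicates, and no p-value was computed.

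H3K4me1 is placed on nucleosomes at enhancers and on both sides of active promoters. At active promoters the nucleosomes next to the start carry the trimethylated form of the same residue, and the monomethylated form lies farther out, so that a CpG island promoter often appears as a marked stretch on either side of an unmarked centre. Runx3, a Runt-domain factor of cytotoxic lymphocytes, binds the letters TGTGGT, of which TGTGGC differs by its last letter, and the forms with a central CpG, written TGCGGT or, with the other last letter, TGCGGC. CpG islands are stretches where the CpG dinucleotide is kept near the number that base composition alone would give, whereas in most of the genome it has been depleted.

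To show what lies at these promoters, sequence is printed in the mm9 build on the plus strand, in lower case with each CpG in capitals. The first set is the promoter of Bnip3, which encodes a mitochondrial protein of the hypoxia and mitophagy response. It is 1 of 4 pairs chosen because the distance between its regions was nearest the median. The gene is on the minus strand of chromosome 7 and starts at 146101189. The left region lies downstream at chr7:146100085-146101210, and the right region lies upstream at chr7:146101383-146102546. The lines give 120 bases from the middle of the left region (chr7:146100588-146100707), the whole unmarked gap (chr7:146101211-146101382) and 120 bases from the middle of the right region (chr7:146101905-146102024).
Bnip3 left: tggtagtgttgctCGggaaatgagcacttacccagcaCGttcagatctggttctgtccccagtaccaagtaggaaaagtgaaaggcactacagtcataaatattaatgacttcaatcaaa
Bnip3 gap: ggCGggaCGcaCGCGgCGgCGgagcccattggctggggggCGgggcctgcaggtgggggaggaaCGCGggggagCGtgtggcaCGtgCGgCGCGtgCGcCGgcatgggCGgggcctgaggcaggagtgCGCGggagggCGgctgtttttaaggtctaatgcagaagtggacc
Bnip3 right: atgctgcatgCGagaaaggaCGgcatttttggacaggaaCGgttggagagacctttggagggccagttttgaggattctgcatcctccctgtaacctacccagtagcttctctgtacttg
The gap held 20 CpGs in 172 bases and its GC content was 73.8%. The printed stretches of the left and right regions held 2 and 3 CpGs in 120 bases, at 42.5% and 50.8% GC. Both regions were thus poorer in CpG than the short unmarked stretch between them.

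The second set shows the range of CpG content among the members. Regions were ranked by the observed/expected CpG ratio, which is the CpG count divided by the count that the C and G content of the region would give. Sp100, a nuclear body protein, and Gbp8, a guanylate-binding protein, were among the 4 lowest. Camta1, a calmodulin-binding transcription activator, and Lin28b, an RNA-binding repressor of let-7 maturation, were among the 4 highest. The lines give the central 120 bases (chr1:87546084-87546203, chr5:105483058-105483177, chr4:150482137-150482256 and chr10:45206552-45206671).
Sp100: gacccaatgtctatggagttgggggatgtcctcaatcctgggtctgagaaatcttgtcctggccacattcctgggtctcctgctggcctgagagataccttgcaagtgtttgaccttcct
Gbp8: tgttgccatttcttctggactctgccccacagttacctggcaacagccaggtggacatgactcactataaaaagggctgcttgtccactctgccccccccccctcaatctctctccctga
Camta1: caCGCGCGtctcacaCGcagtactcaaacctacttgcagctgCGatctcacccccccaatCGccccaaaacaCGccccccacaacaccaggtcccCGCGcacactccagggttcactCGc
Lin28b: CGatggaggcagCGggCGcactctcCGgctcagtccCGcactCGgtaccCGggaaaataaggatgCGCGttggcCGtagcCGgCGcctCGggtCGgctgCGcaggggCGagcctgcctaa
The whole Sp100 region (chr1:87545667-87546621) had a ratio of 0.0326 and the Gbp8 region (chr5:105482604-105483632) a ratio of 0.0397. The Camta1 region (chr4:150481640-150482753) had a ratio of 1.09 and this Lin28b region (chr10:45206169-45207055) a ratio of 1.05. A second region at Lin28b (chr10:45204790-45205780) had the highest ratio of all members, 1.23. The printed stretches of Sp100 and Gbp8 held 0 CpGs, against 10 and 16 in those of Camta1 and Lin28b.

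The third set shows the RUNX consensus at promoters of NK genes that had no overlapping Runx3 peak. Havcr2 encodes the inhibitory receptor Tim-3, Gzmc a granzyme, Plcg2 a phospholipase that acts below activating receptors, and Ets1 a transcription factor needed for NKC development. Each line gives 60 bases around the match nearest the midpoint of the region (chr11:46268360-46268419, chr14:56853636-56853695, chr8:120021835-120021894 and chr9:32443712-32443771), with the match in capitals and its reverse complement counted as a match.
Havcr2: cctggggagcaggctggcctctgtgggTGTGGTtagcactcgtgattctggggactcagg
Gzmc: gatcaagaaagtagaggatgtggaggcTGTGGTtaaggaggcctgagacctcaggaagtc
Plcg2: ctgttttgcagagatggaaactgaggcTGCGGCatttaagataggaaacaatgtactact
Ets1: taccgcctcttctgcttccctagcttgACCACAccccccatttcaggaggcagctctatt
The nearest Runx3 peak lay 15607 bp from the edge of the Havcr2 region, 25863 bp from that of Gzmc, 1688 bp from that of Plcg2 and 17572 bp from that of Ets1. Each of these regions therefore held the letters of the consensus without a called peak over it. This was common, since 90.2% of all members held a match somewhere in the region. At Havcr2 and Plcg2 the match lay outside the central 300 bp that is searched below. They were printed because they hold a match, and the members at the NK receptor genes Klra9 and Fcgr3 held 0 matches over their whole length.

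Promoter regions were mostly narrow. Of all H3K4me1 regions, 11470 (23.0%) had a midpoint under 1 kb from a protein-coding start, and 10430 of these were under the width limit. Runx3-free regions made up 62.9% of the 10430 (interval 62.0 to 63.9%), a smaller share than among narrow regions at large. The remaining 3865, which shared at least 1 bp with a Runx3 peak, are called Runx3-bound promoter regions. Among wider promoter regions 484 were without Runx3 and 556 with it. The members had a median width of 1406 bp (quartiles 1121 and 1904 bp, range 396 to 3179 bp), and the Runx3-bound promoter regions 1384 bp (quartiles 1127 and 1792 bp). Under the limit that selected them, both classes thus had similar widths. At each limit the neighbours on either side were close. The widest members, at Tmem120b, Nrp1 and Mab21l1, measured 3179, 3176 and 3175 bp, and the narrowest regions left out for width, at Haghl, Zfp956 and Tcf3, measured 3183 bp each. The members farthest from a start, at March6, Gapdhs and Mrps9, had midpoints 999 bp away, and the regions at St7, Camsap1 and Supv3l1 were left out at 1000 bp. The member at Moap1 touched a Runx3 peak with 0 bp shared, that at Heatr7a lay 1 bp from one, and the regions at Plk4, Fastkd5 and Ftsj1 were left out for sharing 1, 1 and 3 bp.

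Most members were far from Runx3. The median distance from a member's edge to the nearest Runx3 peak was 31794 bp (quartiles 10969 and 83111 bp). A peak lay under 1 kb away at 426 members (6.49%, interval 5.92 to 7.11%), under 5000 bp at 957 (14.6%), and under 50000 bp at 4077 (62.1%). For distal Runx3-free regions, which are narrow regions with a midpoint more than 5 kb from every protein-coding start, the share under 1 kb was 1.00% of 19656. Under 5000 bp the shares were closer, at 14.6% and 13.3%, and under 50000 bp the distal share was higher, at 67.9%. The median distance of the distal regions was 24675 bp, shorter than that of the members. The rule fixed only that the shared length was 0.

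The members sat over the start more often than on its flanks. The nearest protein-coding start lay inside 4597 of 6565 members (70.0%, interval 68.9 to 71.1%) and inside 2334 of 3865 Runx3-bound promoter regions (60.4%, interval 58.8 to 61.9%). The difference was 9.63 percentage points (interval 7.74 to 11.5). Midpoints of 3165 members (48.2%, interval 47.0 to 49.4%) were upstream and 3397 downstream, whereas 58.7% of Runx3-bound promoter midpoints were upstream, a difference of -10.4 points (interval -12.4 to -8.47). In steps of 100 bp the members had 2 maxima. One, of 477 regions, was 600 to 500 bp upstream, and the other, of 461 regions, was in the first 100 bp downstream. Runx3-bound promoter regions had the upstream maximum, of 388 regions, and only 113 regions in the first 100 bp downstream. Within 100 bp of the start on either side there were thus 861 members and 212 Runx3-bound regions.

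**Figure D1:**
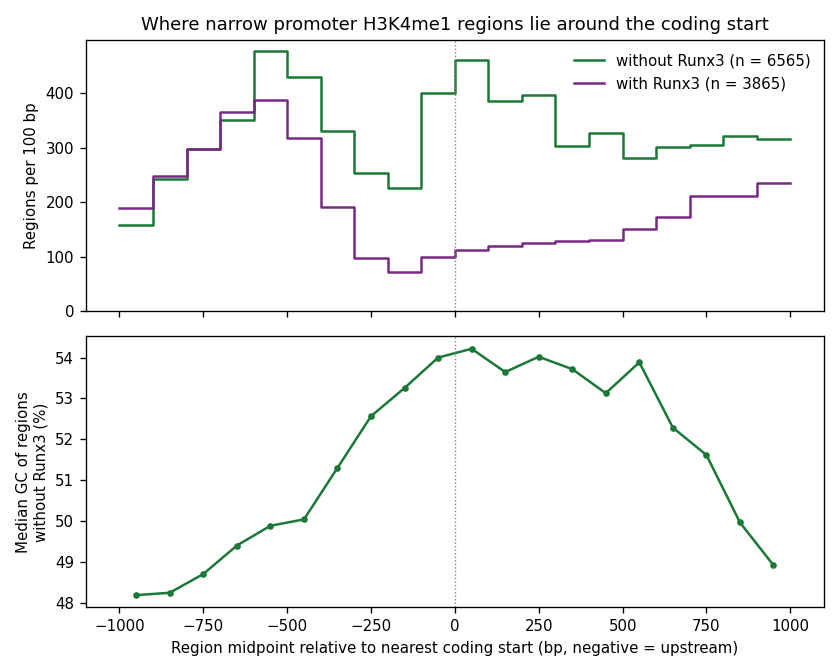
Upper panel, number of narrow promoter H3K4me1 regions per 100 bp of distance between region midpoint and nearest protein-coding start, for 6565 regions without Runx3 and 3865 with Runx3. Lower panel, median GC content of the regions without Runx3 in the same bins. The regions without Runx3 have an additional maximum of 461 regions just downstream of the start, and their GC content is highest (54.2%) in the same bin.

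Flanking pairs were counted by asking, for the nearest start of each member, whether another H3K4me1 region had its midpoint on the opposite side of that start within 2 kb. This held for 2533 members (38.6%, interval 37.4 to 39.8%) and for 2227 of 3865 Runx3-bound promoter regions (57.6%, interval 56.1 to 59.2%), a difference of -19.0 points (interval -21.0 to -17.1). With members limited to midpoints under 500 bp from a start, the paired share was 22.4%. Of the partners, 1350 (53.3%) were themselves members and 890 (35.1%) were narrow and Runx3-free with a midpoint at 1 kb or more from their nearest start. A further 231 (9.12%) were narrow with Runx3 and 62 (2.45%) were at or over the width limit. A member's partner therefore usually lacked Runx3 as well, which follows in part from the choice of members. A Runx3 peak at the shared promoter would often overlap the member too and so exclude it. Of all narrow promoter regions 62.9% lacked Runx3.

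The members fell into 4 shapes, defined by whether the region held the start and whether it had a partner. Single regions over the start were the most numerous, with 3353 members (51.1%), a median width of 1802 bp and a median midpoint distance of 255 bp. Paired regions that still reached over the start numbered 1244 (18.9%), with a median width of 1243 bp. Paired regions beside the start numbered 1289 (19.6%) and single regions beside the start 679 (10.3%), with median widths of 1177 and 1166 bp. The 1968 members that did not hold the start ended a median of 122 bp from it (quartiles 56 and 218 bp). A Runx3 peak lay under 1 kb away at 3.58% of the single regions over the start and at 10.6% and 11.5% of the paired and single regions beside it.

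**Figure D2:**
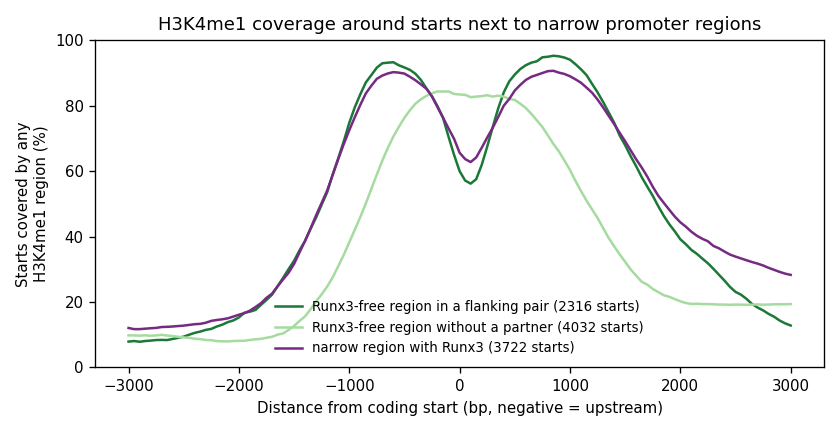
Percentage of protein-coding starts covered by any H3K4me1 region at each distance from the start (bp, negative upstream), for 2316 starts next to a Runx3-free region in a flanking pair, 4032 starts next to one without a partner, and 3722 starts next to a narrow Runx3-bound region. Paired starts show maxima of 93.3% at 600 bp upstream and 95.3% at 850 bp downstream around a minimum of 56.2% at 100 bp downstream, and starts without a partner show a single plateau with 83.4% at the start. Starts were grouped by whether a partner lay on the opposite side, so these shapes follow largely from the grouping.

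There were 713 pairs in which both regions were members. Their facing edges lay a median of 173 bp apart (quartiles 74 and 325 bp), and 397 gaps (55.7%) were under 200 bp. In all 713 no other H3K4me1 region lay in between, which follows largely from taking the nearest region across the start as the partner. The start fell in the gap in 269 pairs (37.7%, interval 34.2 to 41.3%) and inside 1 of the regions in 444. The 579 pairs in which both regions were Runx3-bound had a closely similar geometry, with a median gap of 150 bp (quartiles 72.5 and 298 bp) and the start in the gap in 37.5% (interval 33.6 to 41.5%). A Runx3 peak reached into the gap in 1 of 713 pairs of members and in 578 of 579 Runx3-bound pairs. These shares follow largely from the choice of members, because the median Runx3 peak (825 bp) is wider than most gaps, so that a peak there would overlap a flank. Where the partner of a member was narrow with Runx3, the peak reached into the gap in 159 of 231 pairs (68.8%, interval 62.6 to 74.5%).

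The gaps were richer in CpG than the regions beside them. Among the 316 pairs of members with a gap of at least 200 bp, the median GC content of the gap was 71.2% (quartiles 63.1 and 76.9%), against 48.8% in the upstream and 49.9% in the downstream member. The observed/expected CpG ratio had a median of 0.881 in the gap and of 0.492 in each of the flanking members. A stretch was called CpG-rich when its GC content was at least 50% and its ratio at least 0.6, and this held for 285 gaps (90.2%, interval 86.4 to 93.0%), 52 upstream members (16.5%, interval 12.8 to 20.9%) and 57 downstream members (18%, interval 14.2 to 22.7%). Since the gaps are shorter than the regions, each was also set against stretches of its own length from the facing ends of both flanks, a comparison added after these values were seen. Of those stretches 61.9% (interval 58.0 to 65.6%) were CpG-rich, and the GC content of the gap was above both of them in 222 of 316 pairs (70.3%). Gaps of the 240 Runx3-bound pairs were CpG-rich in 92.9% (interval 89.0 to 95.5%), with a median GC content of 63.9%. Downstream members were wider than their upstream partners in 219 of 316 pairs, with medians of 1376 and 1132 bp.

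**Figure D3:**
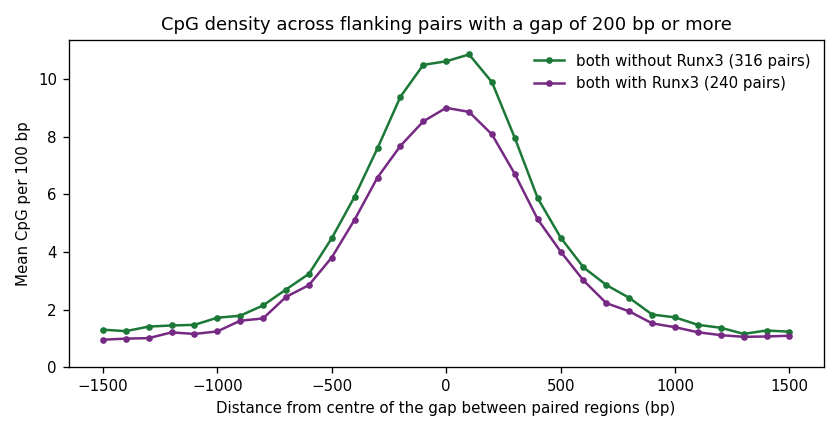
Mean number of CpG dinucleotides per 100 bp against distance from the centre of the gap between paired regions, for 316 pairs in which both regions lacked Runx3 and 240 pairs in which both had it, all with a gap of at least 200 bp. Pairs without Runx3 rise to 10.6 CpGs per 100 bp at the centre and Runx3-bound pairs to 9.0, and at 1500 bp on the left side they are at 1.31 and 0.963.

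The other 3 pairs nearest the median gap also had a GC-rich gap, but the start lay differently among the 4. At Slc35a3, a Golgi nucleotide sugar transporter on the minus strand of chromosome 3, regions of 1544 and 1567 bp (chr3:116413458-116415001 and chr3:116415175-116416741) faced each other across 173 bp with a GC content of 79.2%, against 46.9% and 47.6% in the regions. Each of these regions held a different start of the gene, at 116414760 and 116415749. At Atpaf1, an assembly factor of ATP synthase on the plus strand of chromosome 4, regions of 1317 and 1544 bp (chr4:115456246-115457562 and chr4:115457738-115459281) lay on either side of a 175 bp gap that held the start at 115457589. The gap had a GC content of 75.4%, against 48.5% and 51.8%. At Hcn2, a pacemaker channel on chromosome 10, the gap of 173 bp had 83.8% GC, and the flanking regions themselves were GC-rich at 62.5% and 66.6%. Hence the contrast between gap and flank was smallest at Hcn2 among these 4.

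Head-to-head genes gave a related arrangement. There were 1080 pairs of protein-coding genes that start under 1 kb apart on opposite strands and point away from each other. At least 1 gene of the pair had a member in 412 (38.1%, interval 35.3 to 41.1%), a share over pairs that is not comparable with the share per gene. Counted per gene, 658 of the 2139 genes in such pairs (30.8%, interval 28.8 to 32.8%) had a member, against 26.8% of all protein-coding genes. The same region can count for both genes of a pair, because their starts are under 1 kb apart. These shares are therefore not like for like, and the interval treats the genes of a pair as separate. Members lay on both sides in 70 of the 1080 pairs (6.48%, interval 5.16 to 8.11%), a share without a baseline, with a median gap of 245 bp. The 4 nearest that gap were Tom1l2 and Lrrc48 on chromosome 11 (gap 237 bp), Ankrd32 and 2210408I21Rik on chromosome 13 (253 bp), Elp4, an Elongator subunit, and Immp1l, a mitochondrial inner membrane peptidase, on chromosome 2 (254 bp), and Ciapin1 and Coq9, a coenzyme Q biosynthesis protein, on chromosome 8 (254 bp). At Ciapin1 and Coq9 the starts were 56 bp apart and the regions measured 1737 and 1238 bp.

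The members had more GC than other narrow regions. The median GC content was 51.6% (quartiles 47.3 and 56.2%) in the members, 48.4% (quartiles 45.5 and 51.6%) in Runx3-bound promoter regions and 45.5% (quartiles 42.2 and 48.9%) in distal Runx3-free regions. The observed/expected CpG ratio had medians of 0.504, 0.485 and 0.203. CpG-rich regions made up 1435 members (21.9%, interval 20.9 to 22.9%), 336 Runx3-bound promoter regions (8.69%, interval 7.85 to 9.62%) and 232 distal regions (1.18%, interval 1.04 to 1.34%). The members thus exceeded Runx3-bound promoter regions by 13.2 points (interval 11.8 to 14.5) and distal regions by 20.7 points (interval 19.7 to 21.7). With limits of 55% GC and a ratio of 0.65 the share of members was 10.8%, and the excesses were 9.31 and 10.2 points. Against the 484 wide promoter regions without Runx3, of which 14.0% were CpG-rich, the difference was 7.81 points (interval 4.29 to 10.8). The wide regions had a median GC content of 52.1%, which was at least 50% in 63.02% of them and in 59.3% of members (difference -3.69 points, interval -8.04 to 0.857).

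The difference from Runx3-bound regions was present at each distance from the start. With midpoints less than 250 bp from the start 26.1% of 1793 members and 12.2% of 501 Runx3-bound regions were CpG-rich. The values were 25.3% and 13.1% at 250 to 500 bp, 19.7% and 8.28% at 500 to 750 bp, and 14.4% and 4.19% at 750 to 1000 bp. The members were higher in each of the 4 bins, and the intervals did not overlap in any. Median ratios were closer, for example 0.513 and 0.489 in the first bin, so that the classes differed more in GC content and in the upper tail of the ratio. By shape, 24.6% of single regions over the start (interval 23.1 to 26.1%) and 14.4% of paired regions beside the start (interval 12.5 to 16.4%) were CpG-rich.

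Consensus letters were searched on both strands in the central 300 bp. The SP1 box GGGCGG, recognised by a family of general promoter factors, was found in 1635 members (24.9%, interval 23.9 to 26%), 11.3% of Runx3-bound promoter regions, 7.41% of distal regions and 10.2% of all 49902 H3K4me1 regions. The difference from Runx3-bound promoter regions was 13.6 points (interval 12.2 to 15.1). Wide promoter regions without Runx3 held it in 25.4%, a difference of -0.508 points (interval -4.70 to 3.32). The letters hold a CpG, and base composition was not matched between the classes. The ETS letters AGGAAGT or CGGAAGT occurred in 9.20% of members, 8.67% of Runx3-bound promoter regions, 18.4% of distal regions and 14.0% of all regions, and members differed from distal regions by -9.16 points (interval -10.03 to -8.26). The AP-1 letters TGACTCA or TGAGTCA occurred in 3.90%, 4.73%, 7.17% and 6.11%. The 4 remaining motifs were found in few members, with NRF1 (GCATGCGC) in 1.10% against 0.669% of all regions, NFY (AGCCAAT) in 3.98% against 3.58%, YY1 (AAGATGGC) in 1.46% against 1.52% and CRE (TGACGTCA) in 0.518% against 0.357%. Of the 8 motifs, the SP1 box gave the largest difference between members and Runx3-bound promoter regions.

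**Figure D4:**
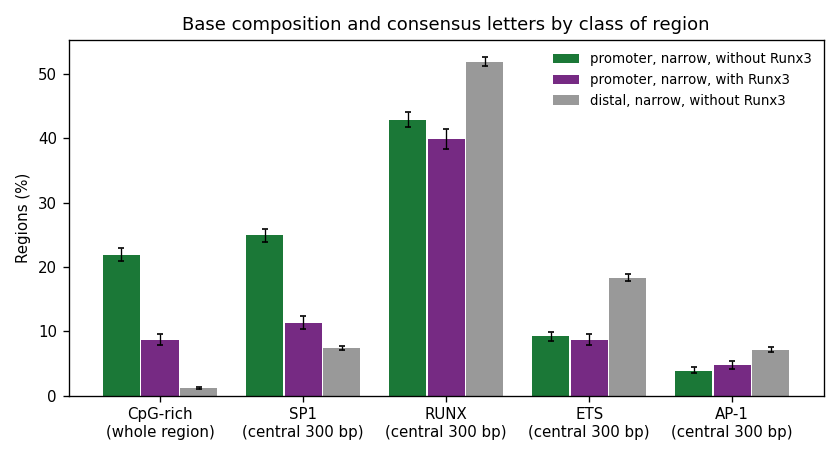
Percentage of regions that are CpG-rich over their whole length, and percentage that hold the SP1, RUNX, ETS or AP-1 letters in the central 300 bp, for 6565 narrow promoter regions without Runx3, 3865 with Runx3 and 19656 distal narrow regions without Runx3. Bars start at 0 and error bars are 95% Wilson intervals, and the promoter regions without Runx3 are highest for CpG-rich (21.9%) and SP1 (24.9%).

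The RUNX consensus was less frequent in the members than in all H3K4me1 regions. The share that base composition alone would give was not computed. The consensus occurred in the central 300 bp of 2814 members (42.9%, interval 41.7 to 44.1%), 39.8% of Runx3-bound promoter regions (interval 38.3 to 41.4%), 51.9% of distal regions (interval 51.2 to 52.6%) and 47.7% of all H3K4me1 regions. Members were above Runx3-bound promoter regions by 3.04 points (interval 1.09 to 4.99) and below distal regions (difference -9.02 points, interval -10.4 to -7.63). The first difference turned to -1.27 points when the whole region was searched, to -0.53 with starts under 500 bp and to -0.099 without the narrowest regions, so its direction was not settled. The centre of an H3K4me1 region is not the centre of a Runx3 peak, and this count does not measure the letters under the peaks. The 4 spellings differed. TGTGGT was in 16.7% of members and 31.1% of distal regions (-14.4 points, interval -15.5 to -13.3), whereas TGCGGC, which holds a CpG, was in 11.4% of members, 5.41% of Runx3-bound promoter regions and 3.65% of distal regions. TGTGGC was in 17.3% and TGCGGT in 6.63% of members. Over the whole region the density was 1.88 matches per kb in members, 1.94 in Runx3-bound promoter regions and 2.06 in distal regions.

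The bases of the members were 46.0% intronic, 32.7% intergenic, 10.6% untranslated exon, 7.46% coding exon and 3.16% exon of transcripts without a coding sequence. Midpoints lay in introns for 2786 members, outside genes for 2178, in untranslated exons for 810, in coding exons for 570 and in other exons for 221. A start of a transcript not annotated as protein-coding was under 1 kb from the midpoint of 2723 members (41.5%) and of 48.0% of Runx3-bound promoter regions, a difference of -6.54 points (interval -8.52 to -4.57).

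Members were near 5979 of 22342 protein-coding genes, a background of 26.8% of genes (interval 26.2 to 27.3%) against which the gene lists below are read. Most of these genes, 5050 (84.5%), had 1 member, 886 had 2, 40 had 3 and 3 had 4. Of the members 383 were near 2 genes and 3 near 3. Any H3K4me1 midpoint was under 1 kb from a start in 10288 genes (46.0%). The gene lists differ in this share too, and it bounds the share of their genes with a member. A narrow Runx3-bound region was present at 3666 genes (16.4%), and 277 genes (1.24%) had both kinds. The midpoint of a Runx3 peak was under 1 kb from a start of 643 genes with a member. Some genes with a Runx3-free region thus had a Runx3 peak near another part of the promoter or another start. The 6 genes with the most members had 3 to 13 start positions each. Pde4d, a cAMP phosphodiesterase on chromosome 13 with 11 start positions, had 4 members, of 2240, 1240, 761 and 1123 bp. Acaca, acetyl-CoA carboxylase, also had 4, of which 1 was nearest to the start of its head-to-head neighbour Tada2a. Tcf7l2, a Wnt effector, had 4, and its ratio of observed to expected CpG ranged from 0.183 to 0.968 among them. Shc4, Mast4 and Wiz had 3 each. On chromosome X 174 of 932 genes (18.7%, interval 16.3 to 21.3%) had a member, and members were 81.9% of its narrow promoter regions, against 58.2 to 67.3% on the autosomes.

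The shares of NK genes were not separable from the background. Over the 3 NK lists 16 of 88 genes had a member (18.2%, interval 11.5 to 27.5%). Of 29 NK receptor genes 4 (13.8%, interval 5.50 to 30.6%) had a member, and of 36 genes for NK effectors and signalling 5 (13.9%, interval 6.08 to 28.7%), with intervals that both include the background. The receptors were Klra9, a Ly49 receptor, Fcgr3, the low-affinity IgG receptor, Itgam, an integrin of mature NKC, and Havcr2. The effector and signalling genes were Gzmc, Lcp2, an adaptor also called SLP-76, Plcg2, Jak3, the kinase of the common gamma chain, and Stat5b. Several of these promoters were poor in CpG. The ratio was 0.0942 at Gzmc, 0.0862 at Lcp2, 0.127 at Itgam, 0.146 at Klra9 and 0.221 at Havcr2, whereas it was 0.821 at Fcgr3 and 0.706 at Plcg2. Jak3 had a member of 1320 bp (chr8:74199084-74200403) and another of 2390 bp (chr8:74200611-74203000). The 23 NK transcription factor genes had a member in 7 (30.4%, interval 15.6 to 50.9%), which included Ets1, Tox, Zeb2, Ikzf1, Elf4 and Bach2. The Bach2 region was 733 bp from a Runx3 peak and the Tox region 40192 bp.

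Many NK receptor and effector genes without a member were under wide domains. Of the 88 genes in the 3 NK lists, 52 had no H3K4me1 midpoint under 1 kb from a start, and 37 of these 52 nonetheless had a start inside an H3K4me1 region, in 35 cases 1 at or over the width limit. These 35 were 16 of 18 effector and signalling genes and 16 of 23 receptor genes but 3 of 11 transcription factor genes. Eomes, for example, had its nearest region 818 bp from the start, with a width of 1768 bp. Prf1, perforin, lay in a region of 15270 bp, Ccl3 and Ccl4 in 1 of 21652 bp, Tyrobp, the DAP12 adaptor, in 1 of 22807 bp and Klrd1, the CD94 receptor, in 1 of 21346 bp. A Runx3 peak midpoint was under 1 kb from a start in 55 of the 88 genes (62.5%), in 282 of 476 genes of the general machinery lists described below (59.2%) and in 5928 of all 22342 genes (26.5%). The rule leaves out regions that are wide or overlap Runx3, so these counts follow in part from the choice of members. A region that covers a start from a midpoint 1 kb or more away also has to be wide. The widths over the starts of the 52 genes thus follow largely from the choice of those genes. Wide regions over starts were not counted for all genes, so they are not shown to be particular to NK genes.

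Genes of other blood lineages were represented by single regions over the start. A member was found at 4 of 21 T cell genes, 5 of 17 B cell genes, 2 of 20 myeloid genes and 1 of 11 erythroid genes. The interval of each share includes the background, and the shares ranged from 9.09% to 29.4%. The T cell genes were Cd5 and Cd6, scavenger receptors of lymphocytes, Themis, a thymocyte signalling protein, and Foxp3, the factor of regulatory T cells. The B cell genes were Cd79b, a chain of the B cell receptor, Ebf1, Cd22, Cr2 and Pou2af1. The myeloid genes were Cd14 and Sfpi1, which encodes PU.1. All 12 regions at these genes held the start and had no partner, and their ratio of observed to expected CpG had a median of 0.267. The midpoint was 38 bp from the start at Cd5, -34 bp at Cd6, 8 bp at Themis and 5 bp at Cr2 (negative upstream), so these 4 regions were centred on it. Coordinates do not show whether the regions came from NKC or from other cells in the preparation, which was not tested.

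Genes of the general machinery had members at shares on both sides of the background. The shares were 33 of 75 mitochondrial ribosomal proteins (44.0%, interval 33.3 to 55.3%), 15 of 37 tRNA synthetases (40.5%), 22 of 57 translation initiation factors (38.6%, interval 27.1 to 51.6%), 10 of 31 Mediator genes (32.3%), 24 of 80 genes of the respiratory chain and ATP synthase (30.0%), 12 of 41 proteasome genes (29.3%), 11 of 46 splicing factors (23.9%), 19 of 83 cytosolic ribosomal proteins (22.9%) and 5 of 26 RNA polymerase genes (19.2%). The interval of the mitochondrial ribosomal proteins lay above 26.8%, and those of 7 other lists included it. Of the 75 mitochondrial ribosomal genes 33 (44.0%) also had a narrow Runx3-bound region. Any H3K4me1 midpoint was near 68 of them (90.7%), against 46.0% of all genes. That of the translation initiation factors lay just above it, with a lower limit of 27.1%. This list was formed from gene symbols that begin with Eif. It also holds genes that are not initiation factors, such as the kinase gene Eif2ak2, so its share is not that of initiation factors alone. With a lower limit this near the background, the share is not read further. Over these 9 lists 151 of 476 genes (31.7%, interval 27.7 to 36.0%) had a member, above 26.8%. A narrow Runx3-bound region was present at 193 (40.5%), against 16.4% of all genes. Any H3K4me1 midpoint was near 366 (76.9%), against 46.0% of all genes, so the excess was not particular to Runx3-free regions. The genes named first in their lists include Mrpl1 and Mrpl12, of the large mitochondrial subunit, Aars, alanyl-tRNA synthetase, Eif2ak2, the kinase PKR, Med12, Atp5b, Psmb10, an immunoproteasome subunit, Sf3b5, Rpl14 and Polr2k.

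The machinery genes differed in shape from the lineage genes. Of 178 members at the 9 lists 117 (65.7%) were in a flanking pair and 50 (28.1%) were single regions over the start, against 0 and 12 of 12 at the T, B, myeloid and erythroid lists and 3 and 11 of 17 at the NK lists. For all members these shares were 38.6% and 51.1%. The sums were formed after the values of the lists were seen and carry no test. Rpl14, a protein of the large ribosomal subunit, shows the paired form, with a region of 1360 bp upstream (chr9:120479211-120480570) and 1 of 1429 bp downstream (chr9:120480735-120482163) of a start at 120480632, and Psmc3, a proteasomal ATPase, had regions of 994 and 1868 bp on either side of its start. Cd79b shows the single form, with 2071 bp (chr11:106174391-106176461) over the start at 106175843.

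In 7 further lists the share was not separable from the background. Members were found at 15 of 39 cell cycle regulators (38.5%), among them Ccnb1, Ccnd1 and Cdk2, 17 of 52 DNA repair genes (32.7%), among them Rad50, 8 of 30 autophagy genes (26.7%), among them Ulk1, 13 of 32 ubiquitin conjugating enzymes (40.6%) and 5 of 20 intraflagellar transport and Bardet-Biedl genes. Replication-dependent histone genes had members in 20 of 62 (32.3%), and immediate early genes in 2 of 16 (12.5%), Fosb and Nr4a1. Each of these 7 intervals included 26.8%. At 17 of 23 members of DNA repair genes and 7 of 9 of autophagy genes there was a flanking pair. Histone genes lie in dense clusters, and a member there can be near the start of several of them.

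Zinc finger genes had members more often than coding genes at large, and Hox genes had almost no narrow Runx3-bound region. Among 365 Zfp genes 134 (36.7%, interval 31.9 to 41.8%) had a member, above the background, and 80 (21.9%) a narrow Runx3-bound region, also above the 16.4% of all genes. Any H3K4me1 midpoint was near 230 Zfp genes (63.0%), against 46.0% of all genes. The excess was therefore not particular to Runx3-free regions. Among 40 Hox genes, which pattern the body axis, 15 (37.5%, interval 24.2 to 53.0%) had a member, 7 a wide region and 1 a narrow Runx3-bound region (2.50%). Of 16 members at Hox genes 12 were single regions over the start and 8 were CpG-rich, against 21.9% of all members. The Hoxa10 region measured 1645 bp, with a ratio of 0.627. Gene families used in other tissues were almost without members, with 6 of 1087 olfactory receptor genes (0.552%, interval 0.253 to 1.20%), 1 of 46 keratin genes (2.17%) and 0 of 320 vomeronasal receptor genes, for which the interval reached 1.19%. The intervals of all 3 lay below 26.8%. These lists were also almost without H3K4me1 of any kind, with a midpoint near 10, 1 and 0 genes in the same order.

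**Figure D5:**
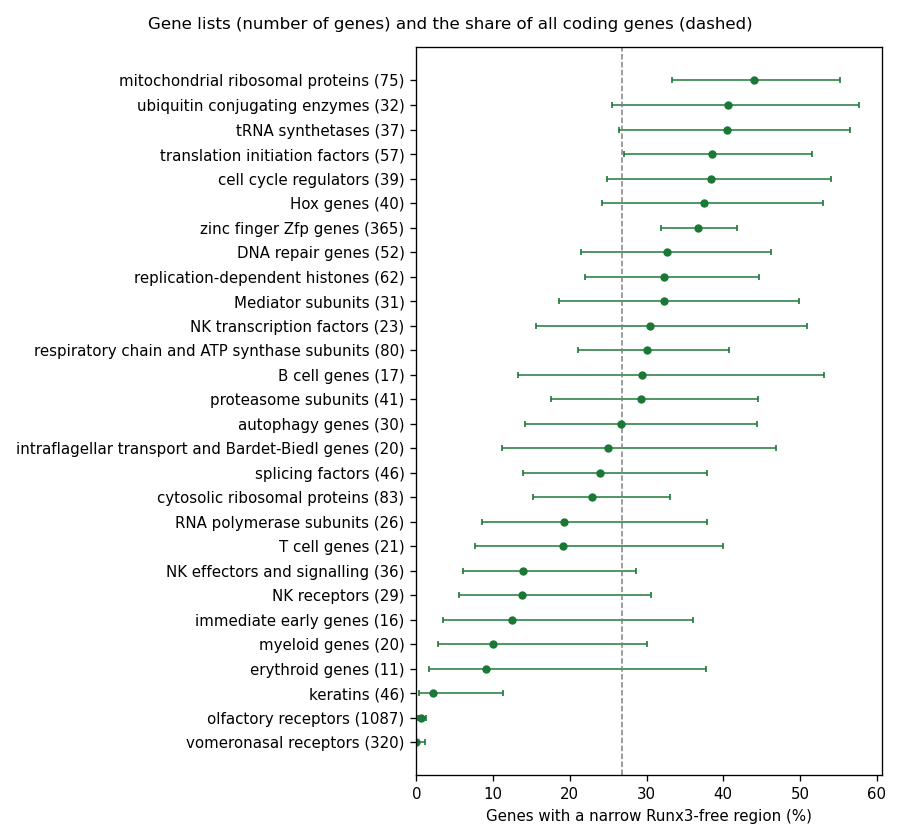
Percentage of the genes in each list with a narrow Runx3-free H3K4me1 region whose midpoint is under 1 kb from a start, with 95% Wilson intervals, the number of genes in parentheses and the share of all protein-coding genes (26.8%) as a dashed line. Mitochondrial ribosomal proteins are highest at 44.0%, NK receptor and effector lists are at 13.8% and 13.9%, and olfactory and vomeronasal receptors are at or near 0.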

How the data were processed

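Coordinates of enriched regions were analysed for Runx3 and H3K4me1 (1 list each). Per the study's methods and the labels, the authors sequenced 40 bp reads on a Genome Analyzer IIx, aligned them to mm9 with ELAND (CASAVA 1.7 in the submitters' processing notes), joined the reads of biological repeats and called regions with MACS against NIS. The deposited lists hold positions alone, so depth per region is unknown, and widths and gaps are as the authors' caller gave them.

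Starts were the 45993 protein-coding transcript starts of GENCODE M1 on mm9 (22342 genes, 20 chromosomes), and bases came from the same build. A region of the H3K4me1 list that ends 23 bp past its chromosome was kept. Scripts used Python 3.11.15, NumPy 2.4.6 and pandas 2.3.3 and were checked on simulated regions. Named genes were, per list, the first 6 with a member (a selection is printed), the 6 genes with most members, and the pairs, extremes and threshold neighbours described above. Printed windows meet no annotated UTR exon. Members and lists were chosen with earlier results of these data known. A few genes that the naming rule selects are not reported here. No test was run.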

Additional observations from a re-analysis of the deposited data

How the results depend on the processing

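Of 64 recomputed values over 9 alternatives, 30 stayed inside the interval of the value reported (or, for the number of regions, within 1.5 times), 31 moved outside it with their direction kept and 3 reversed. The reversals all concerned the RUNX share of members minus Runx3-bound promoter regions, 3.04 points as reported, which was -0.531 with starts under 500 bp, -0.0989 with widths of at least 1264 bp (the lower quartile) and -1.27 over the whole region. Its cause was not tested.

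With starts under 500 bp there were 3510 members, of which 46.6% were upstream, 22.4% paired, 3.65% under 1 kb from Runx3, 25.7% CpG-rich (24.5 points above distal regions) and 44.9% with RUNX letters (-7.02 points against distal regions), and 15.4% of genes had a member. With widths of at least 1264 bp the values were, in the same order, 4017, 37.9%, 26.8%, 5.80%, 20.1% (19.0 points), 44.4% (-5.97 points) and 17.9%. With 1 start per gene 5.79% were under 1 kb from Runx3, 23.4% were CpG-rich (21.9 points above distal regions) and 23.8% of genes had a member. Without Runx3 within 1 kb of the region 24.8% of genes had a member. Partners within 3 kb gave 45.9% paired. At 55% GC and a ratio of 0.65, 10.8% were CpG-rich, 9.31 points above Runx3-bound promoter and 10.2 above distal regions. RUNX letters were in 31.3% of central 200 bp windows (-7.27 points against distal regions) and in 90.2% of whole regions (-3.66). Autosomes alone moved no value outside its interval. The share under 1 kb from Runx3 has no value once such regions are left out. No paired analysis was possible because each antibody has 1 sample and 1 list.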
